A study of Mus musculus with 8 samples.

Results

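BNIP3 is a receptor of the outer mitochondrial membrane, and its gene belongs to the set that responds to low oxygen. *Bnip3* and 9 further genes of this response were followed in mouse embryonic stem cells (ESCs) after depletion of ZZZ3 or YEATS2, both parts of ATAC, a coactivator complex that acetylates histones. The 10 genes are *Bnip3*, *Bnip3l*, *Pdk1*, *Egln1*, *Egln3*, *Vegfa*, *Ankrd37*, *Hk2*, *Slc2a1* and *Ndrg1*, out of 55401 genes counted. All 10 were among the 17532 genes expressed highly enough to be tested. *Bnip3* was picked for its low level in the Yeats2 auxin libraries, so its values in that group against control are given as a description with no test. The other 9 were listed as known targets of the hypoxia-inducible factors (HIFs), and the comparison asks whether they followed *Bnip3*. All 10 were chosen with earlier results of these data known.

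Total RNA came from 2 control cultures, 3 cultures named Zzz3 auxin and 3 named Yeats2 auxin. In the auxin groups, ZZZ3 or YEATS2 carries an auxin-inducible degron (AID), a tag through which the plant receptor TIR1 directs the protein to degradation once auxin is present. Auxin was given at 500 µM for 24 h. All cells grew in serum medium with leukaemia inhibitory factor and the inhibitors CHIR99021 and PD0325901, and under G418, which selects for TIR1. The labels leave line and treatment of the controls out. The supplement of the study sets AID cells in auxin against AID cells in the solvent DMSO, but does not state from which of both lines these 2 libraries came, so the depletion, the exposure to auxin and any difference between lines cannot be told apart. They also do not say how many clones each line represents or whether the cultures were grown separately, so the P values measure the spread between these libraries, which may be technical.

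HIFs are pairs of an oxygen-regulated alpha subunit and ARNT. When oxygen is present, the prolyl hydroxylases encoded by the *Egln* genes mark the alpha subunit, and the VHL ubiquitin ligase then has it destroyed. When oxygen is scarce, HIFs raise genes for glucose uptake and glycolysis, for blood vessel growth, for their own hydroxylases and for mitophagy, the removal of mitochondria by autophagy. BNIP3 and its paralog BNIP3L bind proteins of the forming autophagosome and so recruit mitochondria to it. ESCs in culture rely strongly on glycolysis, and several HIF targets encode proteins of glucose uptake and glycolysis.

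The libraries held 14315120 to 27884704 reads assigned to genes. All 8 ESC markers examined were present, between 103 and 2545 CPM, which are counts scaled to the same library total, and their summed level was 5120 to 5295 CPM in control, 4548 to 5183 CPM in Zzz3 auxin and 4690 to 5341 CPM in Yeats2 auxin. Summed markers of fibroblasts stayed between 7.06 and 12.4 CPM and those of primitive endoderm between 1.82 and 2.81 CPM, while those of neuroectoderm were 41.3 to 43.1 CPM in control, 49.1 to 72.0 CPM in Zzz3 auxin and 45.1 to 50.4 CPM in Yeats2 auxin. *Zzz3* mRNA was lower after Zzz3 auxin (log2 fold change, FC, -0.95 ± 0.14, SE, adjusted *P* = 0.0187, edgeR), whereas *Yeats2* mRNA overlapped with control after Yeats2 auxin (-0.32 ± 0.26, adjusted *P* = 0.605). The degron acts on the protein, so neither value measures the depletion. Control replicate 1 and Zzz3 auxin replicate 3 stood apart in composition: the median log2 difference between GC-rich and GC-poor genes, relative to all libraries, was -0.64 and 0.47 in these, and -0.09 to 0.18 in the other 6. For the 10 genes, values without them or with this trend removed are given beside many of the results. Yeats2 auxin replicates 1 and 3 were much more alike than any other pair of libraries within a group. A chi-square per gene between their counts, larger for less similar libraries, was 3.82, beside 22.1 to 53.9 for the other pairs. These libraries may therefore not be separate replicates. In such bulk samples, fewer cells of a type and less RNA per cell cannot be told apart.

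HIFs recognise the short core motifs ACGTG and GCGTG. Promoter windows of 300 bases, from 250 bases before to 50 after the annotated start (RefSeq, GRCm38.p6), were found for 8 of the 10 genes, in 10 windows, but not for *Bnip3l* and *Ndrg1*. Searched on both strands, each of the 8 genes had at least one of both motifs in a window, and 8 of the 10 windows held one, beside 43.8% of all 32851 windows of this length. ACGTG alone occurred for 7 of the genes and in 19.6% of all windows, and GCGTG for 6 of the genes and in 32.4% of all windows. Both motifs overlap by construction with longer runs, so that 1 palindromic CACGTG counts as 2 ACGTG. For 4 genes 1 window each is printed, because the results turn on these genes. *Bnip3* and *Pdk1* had the largest negative log2 FC after Yeats2 auxin, while *Hk2* and *Ankrd37* overlapped with control there. Each reads 5′ to 3′ on the strand of the gene, with every match to either motif on either strand in capitals.
Bnip3: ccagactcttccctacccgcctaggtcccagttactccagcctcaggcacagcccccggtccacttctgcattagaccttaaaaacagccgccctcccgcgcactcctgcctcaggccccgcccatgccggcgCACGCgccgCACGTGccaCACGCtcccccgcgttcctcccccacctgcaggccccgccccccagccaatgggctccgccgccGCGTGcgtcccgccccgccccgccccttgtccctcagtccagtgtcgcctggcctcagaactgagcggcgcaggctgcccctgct
Pdk1: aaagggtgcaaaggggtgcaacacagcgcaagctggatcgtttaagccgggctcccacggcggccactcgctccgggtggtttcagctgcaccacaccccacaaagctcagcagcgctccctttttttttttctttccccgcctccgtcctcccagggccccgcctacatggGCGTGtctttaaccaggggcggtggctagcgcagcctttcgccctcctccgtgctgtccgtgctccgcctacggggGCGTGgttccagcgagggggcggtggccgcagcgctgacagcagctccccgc
Ankrd37: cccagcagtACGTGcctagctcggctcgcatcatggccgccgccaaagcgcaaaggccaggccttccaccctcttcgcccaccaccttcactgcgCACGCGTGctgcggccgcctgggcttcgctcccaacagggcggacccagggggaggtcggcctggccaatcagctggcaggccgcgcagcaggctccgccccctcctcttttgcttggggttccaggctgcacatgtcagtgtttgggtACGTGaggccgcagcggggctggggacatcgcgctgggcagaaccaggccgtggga
Hk2: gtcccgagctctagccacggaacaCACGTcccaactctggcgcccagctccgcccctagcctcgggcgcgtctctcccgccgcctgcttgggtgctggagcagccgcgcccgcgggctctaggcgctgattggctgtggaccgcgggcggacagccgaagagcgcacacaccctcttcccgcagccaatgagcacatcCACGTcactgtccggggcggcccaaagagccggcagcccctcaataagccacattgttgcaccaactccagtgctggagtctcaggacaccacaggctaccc
The *Bnip3* window, chr7:138909457-138909756 on the minus strand, held 1 palindromic CACGTG and 3 matches to GCGTG. The printed window of *Pdk1*, chr2:71872974-71873273 on the plus strand, held 2 matches to GCGTG and 0 to ACGTG. A second *Pdk1* window, chr2:71874654-71874953, is not printed and held 0 matches to either motif. *Ankrd37*, chr8:45999801-46000100 on the minus strand, had 2 matches to each motif, and *Hk2*, chr6:82774405-82774704 on the minus strand, had 2 to ACGTG. These windows therefore held motif matches both for genes with the lowest ratios in Yeats2 auxin and for genes that overlapped with control there. In Zzz3 auxin, all libraries were below both controls for *Hk2* and *Ankrd37* as well. A match is a description of the letters, and binding was not measured here.

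*Bnip3* (ENSMUSG00000078566, chr7:138890836-138909519 on the minus strand of GRCm38) was at 11.5 and 7.17 CPM in the controls, after TMM scaling (trimmed mean of M values). It was at 5.60, 4.07 and 5.42 CPM in Zzz3 auxin and at 3.44, 3.40 and 2.69 CPM in Yeats2 auxin. The 3 groups did not overlap, with every Yeats2 auxin library below every Zzz3 auxin library and every Zzz3 auxin library below both controls. These levels rest on 68 to 233 reads per library. In Yeats2 auxin the fitted level was 0.342 times that of control (log2 FC -1.55 ± 0.25), and 0.635 times that of Zzz3 auxin (-0.66 ± 0.23), both without a test because these libraries chose the gene. In Zzz3 auxin the log2 FC was -0.89 ± 0.25 (95% interval -1.43 to -0.36), which did not pass correction over all genes (adjusted *P* = 0.0887, edgeR), in a test that used the same 2 control libraries. DESeq2 called it on the same libraries (adjusted *P* = 0.0238). By edgeR it was not called with the GC and length correction (adjusted *P* = 0.204) or the replicate block (adjusted *P* = 0.140). As *Bnip3* was chosen against these controls, none of these tests is independent of that choice.

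Both controls differed from each other by more than the auxin libraries of either group did. Without control replicate 1 the log2 FC of *Bnip3* was -0.52 for Zzz3 auxin against -1.17 for Yeats2 auxin. Without control replicate 2 it was instead -1.19 and -1.85. *Bnip3* transcripts are GC-poor (41.6%), and GC-poor genes were high in control replicate 1. With a GC and length trend removed from every library, the log2 FC was -0.64 in Zzz3 auxin and -1.36 in Yeats2 auxin. The annotated neighbours on the opposite strand, the antisense RNA *Gm45507* and the pseudogene *Gm18258*, had at most 4 and 1 reads in any library.

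**Figure D1:**
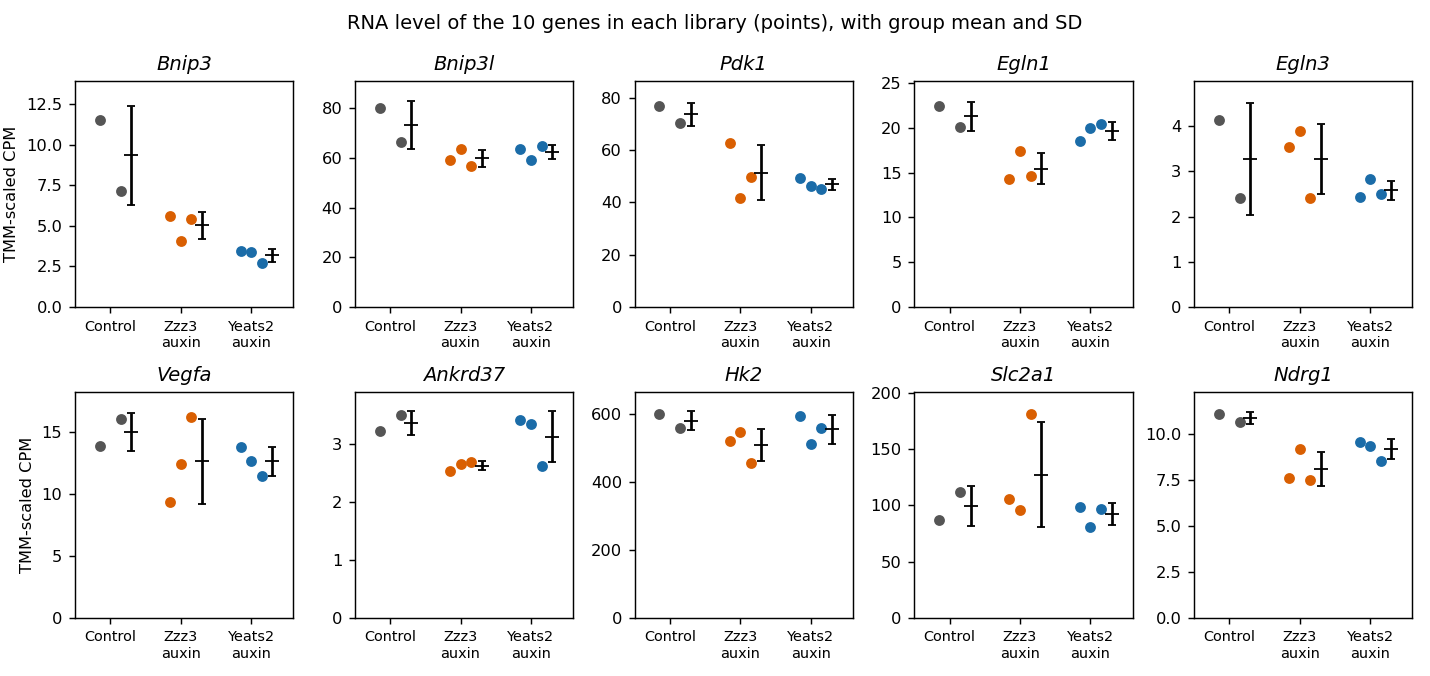
RNA level of each of the 10 genes in TMM-scaled CPM (vertical axes, linear and starting at 0) in the 2 control, 3 Zzz3 auxin and 3 Yeats2 auxin libraries. Points are libraries, and bars to their right give the group mean with its SD. For *Bnip3* the 3 groups are separate, while for *Egln3* and *Slc2a1* the auxin libraries lie around the controls.

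Its paralog *Bnip3l* (ENSMUSG00000022051, chr14:66985239-67008877, minus strand), which encodes the mitophagy receptor NIX, was at 80.1 and 66.4 CPM in control. It stood at 59.1, 63.7 and 56.7 CPM in Zzz3 auxin and at 63.6, 59.2 and 64.7 CPM in Yeats2 auxin. All 6 auxin libraries were below both controls, but by little: the log2 FC was -0.29 ± 0.12 in Zzz3 auxin (adjusted *P* = 0.202) and -0.23 ± 0.12 in Yeats2 auxin (adjusted *P* = 0.412). Like *Bnip3* it is GC-poor (41.9%), and with the GC and length trend removed these values were -0.07 and -0.06. Without control replicate 1 they were -0.15 and -0.09. A processed copy, *Bnip3l-ps*, is annotated, so part of its reads may have been left out as not unique.

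*Pdk1* (ENSMUSG00000006494, chr2:71873224-71903858, plus strand) encodes a kinase that inactivates pyruvate dehydrogenase and so keeps pyruvate out of the mitochondrial citrate cycle. Its level was 76.9 and 70.6 CPM in control, 62.7, 41.7 and 49.9 CPM in Zzz3 auxin and 49.3, 46.4 and 45.2 CPM in Yeats2 auxin. All auxin libraries were below both controls, and the Yeats2 auxin libraries lay close together within the range of Zzz3 auxin. The log2 FC was -0.65 ± 0.16 in Yeats2 auxin (95% interval -0.99 to -0.31, adjusted *P* = 0.111) and -0.52 ± 0.16 in Zzz3 auxin (-0.86 to -0.18, adjusted *P* = 0.108). Neither passed the threshold, although both had the smallest adjusted *P* of the 9 genes in their comparison. DESeq2 called *Pdk1* in both, at an adjusted *P* of 0.0171 against 0.0461 for Yeats2 and Zzz3 auxin, respectively. Removing the GC and length trend left -0.59 and -0.45. The ratio in Yeats2 auxin was thus smaller in size than that of *Bnip3* but moved less with the choice of controls, at -0.59 without control replicate 1 and -0.71 without control replicate 2.

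*Hk2* (ENSMUSG00000000628, chr6:82725025-82774454, minus strand), the hexokinase that commits glucose to glycolysis at the mitochondrial surface, was at 600 and 559 CPM in control. Its level was 520, 547 and 457 CPM in Zzz3 auxin, all below control, and 595, 510 and 558 CPM in Yeats2 auxin, which overlapped with control. The log2 FC was -0.19 ± 0.12 (adjusted *P* = 0.386) and -0.06 ± 0.12 (95% interval -0.33 to 0.20), respectively. Removing the GC and length trend gave -0.29 and -0.15, and leaving out control replicate 1 and Zzz3 auxin replicate 3 gave -0.06 in Zzz3 auxin. The antisense *Gm17034* within *Hk2* had at most 3 reads in any library. *Slc2a1* (ENSMUSG00000028645, chr4:119108711-119137983, plus strand), the glucose transporter GLUT1, was at 86.7 and 112 CPM in control, 105, 95.9 and 181 CPM in Zzz3 auxin and 98.8, 80.9 and 97.2 CPM in Yeats2 auxin. Its highest value belonged to Zzz3 auxin replicate 3, and both auxin groups overlapped with control. The log2 FC in Zzz3 auxin was 0.36 ± 0.24, and it was -0.15 without control replicate 1 and Zzz3 auxin replicate 3. In Yeats2 auxin it was -0.11 ± 0.24, and -0.28 without control replicate 1. Within *Slc2a1*, *Mir1957a* had 6 to 12 reads, and the antisense *Gm12867* and *Gm12868* had at most 2.

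Of the hydroxylases that sense oxygen, *Egln1* and *Egln3* were followed here, and a difference between them was not tested. *Egln1* (ENSMUSG00000031987, chr8:124908587-124949324, minus strand) encodes PHD2, the main HIF prolyl hydroxylase, and was at 22.4 and 20.1 CPM in control, 14.3, 17.4 and 14.7 CPM in Zzz3 auxin and 18.5, 20.01 and 20.4 CPM in Yeats2 auxin. The Zzz3 auxin libraries were below all others, while Yeats2 auxin overlapped with control. The log2 FC was -0.46 ± 0.15 in Zzz3 auxin (adjusted *P* = 0.123) and -0.11 ± 0.15 in Yeats2 auxin (adjusted *P* = 0.761). With the GC and length trend removed these were -0.71 and -0.31, and neither was called. Yeats2 auxin exceeded Zzz3 auxin by 0.34 ± 0.13 on the log2 scale, which did not pass correction (adjusted *P* = 0.779). *Egln3* (ENSMUSG00000035105, chr12:54178981-54203860, minus strand), which encodes PHD3, was at 4.14 and 2.40 CPM in control, 3.53, 3.88 and 2.41 CPM in Zzz3 auxin and 2.44, 2.82 and 2.49 CPM in Yeats2 auxin. These overlapped throughout, the 2 controls alone spanned nearly the whole range, and the log2 FC was 0.02 ± 0.29 and -0.34 ± 0.29. Without control replicate 1 these were 0.46 and 0.10.

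*Vegfa* (ENSMUSG00000023951, chr17:46016993-46032369, minus strand), the growth factor of the vascular endothelium, was at 13.9 and 16.1 CPM in control, 9.32, 12.4 and 16.2 CPM in Zzz3 auxin and 13.8, 12.7 and 11.5 CPM in Yeats2 auxin. Zzz3 auxin spanned the controls and Yeats2 auxin lay just below them. The log2 FC was -0.26 ± 0.22 and -0.25 ± 0.21, and in Zzz3 auxin it was -0.56 without control replicate 1 and Zzz3 auxin replicate 3. *Ndrg1* (ENSMUSG00000005125, chr15:66929318-66969640, minus strand), a stress-responsive gene of the N-myc downstream-regulated family, was at 11.1 and 10.7 CPM in control, 7.60, 9.16 and 7.50 CPM in Zzz3 auxin and 9.59, 9.37 and 8.55 CPM in Yeats2 auxin. All 6 auxin libraries were below both controls, with a log2 FC of -0.42 ± 0.17 (adjusted *P* = 0.182) and -0.25 ± 0.17 (adjusted *P* = 0.526). The overlapping *Gm17035* and *Gm2895* had at most 3 reads. *Ankrd37* (ENSMUSG00000050914, chr8:45996902-46005707, minus strand), a small ankyrin-repeat protein, was at 3.21 and 3.49 CPM in control, 2.53, 2.64 and 2.68 CPM in Zzz3 auxin and 3.40, 3.33 and 2.61 CPM in Yeats2 auxin. Only its Zzz3 auxin libraries were all below control, and the log2 FC was -0.36 ± 0.22 and -0.10 ± 0.22. *Ankrd37* rests on 40 to 92 reads per library and shares 57 exonic bases with *Ufsp2*, which lies on the opposite strand with 317 to 722 reads. It also shares 349 exonic bases with *Lrp2bp*, on the opposite strand with at most 6 reads. The strand setting of the counting is not stated, so reads in such shared bases cannot be told apart.

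Across the 9 genes other than *Bnip3*, none was called after Zzz3 auxin, where 0.753% of all genes were called, and none after Yeats2 auxin, where 0.445% were (edgeR, adjusted *P* under 0.05). At an unadjusted *P* under 0.05, 4 of the 9 passed in Zzz3 auxin (*Bnip3l*, *Pdk1*, *Egln1* and *Ndrg1*, all lower), beside 21.7% of all genes. In Yeats2 auxin 1 of the 9 passed (*Pdk1*), beside 14.6%. DESeq2 called 1 of the 9 in each comparison, which was *Pdk1* both times. Among the 33007 genes it fitted, DESeq2 called 1083 in Zzz3 auxin and 418 in Yeats2 auxin. Both comparisons share the 2 control libraries, so they are not independent of each other.

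The signs of these 9 genes leaned to lower values. This is a description, because the genes were chosen with earlier results of these data known and both comparisons share the controls. In Zzz3 auxin 7 of the 9 genes had a log2 FC below 0, as did 48.9% of all genes, and their median was -0.29 beside 0.01 over all genes. In Yeats2 auxin 9 of the 9 were below 0, as were 51.1% of all genes, with a median of -0.23 beside -0.01. Every Zzz3 auxin library was below both controls for 6 of the 9 genes, a separation seen for 18.9% of all genes. For Yeats2 auxin this held for 4 of the 9 (*Bnip3l*, *Pdk1*, *Vegfa* and *Ndrg1*), beside 21% of all genes. Under the 16 other settings tried, 7 or 8 of the 9 were below 0 in Zzz3 auxin and 8 or 9 in Yeats2 auxin. Without control replicate 1 and Zzz3 auxin replicate 3, 8 of the 9 were below 0 in each comparison, and the medians were -0.33 and -0.15. Of 26 other HIF targets tested, described below, 15 were higher and 11 lower in each comparison.

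Library by library, the median log2 ratio of the 9 genes to the control mean was 0.05 and -0.05 in both controls. It was -0.30, -0.25 and -0.36 in Zzz3 auxin, and -0.18, -0.21 and -0.33 for Yeats2 auxin. *Bnip3* itself stood at 0.34 and -0.34, at -0.69, -1.14 and -0.74, and at -1.38, -1.39 and -1.72 in the same order. *Bnip3* was picked for its fall in these libraries, so its distance from the others is a description. The lower ends of the 95% intervals in Yeats2 auxin ran from -0.99 for *Pdk1* and -0.96 for *Egln3* to -0.33 for *Hk2*. Each interval holds for 1 gene alone and for these 2 controls, so together they set no bound on the 9. Without control replicate 2 the estimate itself was -0.68 for *Egln3* and -0.71 for *Pdk1*, and without control replicate 1 it was 0.10 and -0.59.

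**Figure D2:**
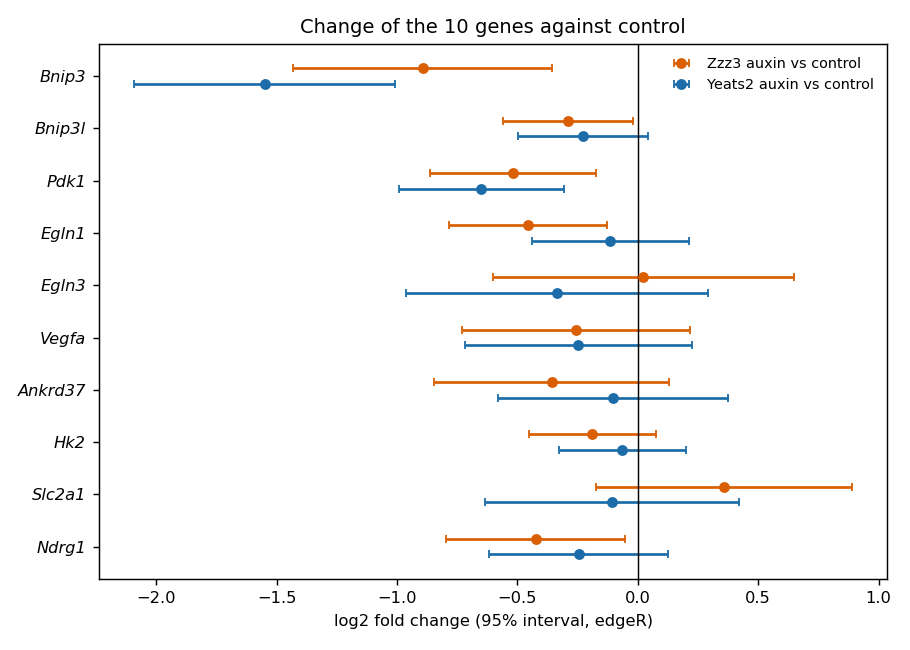
Log2 FC of each of the 10 genes (horizontal axis) in Zzz3 auxin (orange) and Yeats2 auxin (blue) against the same 2 controls, from edgeR. Points are estimates and bars 95% intervals; *Bnip3* in Yeats2 auxin, at -1.55, was chosen on these libraries, and among the other 9 *Pdk1* is lowest in both groups, at -0.52 and -0.65.

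Yeats2 auxin and Zzz3 auxin were also compared directly. The control mean does not enter this ratio, but the controls took part in the filter, the scaling and the shared estimate of the spread. None of the 9 genes was called, as was the case for 0% of all genes, and 1 passed at an unadjusted *P* under 0.05 (*Egln1*, higher in Yeats2 auxin), beside 6.25% of all genes. DESeq2 called 3 of 33007 genes and none of the 9. In this comparison 6 of the 9 were higher and 3 lower in Yeats2 auxin, with a median of 0.06. The values for *Pdk1* (-0.13 ± 0.14) and *Bnip3l* (0.06 ± 0.11) were within the spread between libraries, and *Slc2a1* (-0.46 ± 0.21) depended on Zzz3 auxin replicate 3, without which it was -0.12.

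The 10 genes covered a wide range of expression. Divided by exonic length, the mean control level was 97.1 CPM per kb for *Hk2*, 28.3 for *Slc2a1*, 19.0 for *Bnip3l* and 9.48 for *Pdk1*, all of which take part in glucose use or mitophagy. It was 5.91 CPM per kb for *Egln1*, 4.12 for *Bnip3*, 3.50 for *Vegfa*, 2.18 for *Ankrd37*, 1.65 for *Ndrg1* and 1.23 for *Egln3*. Between neighbours in this order only the control ranges of *Bnip3* (3.16 to 5.08) and *Vegfa* (3.25 to 3.76) overlapped. *Bnip3* thus ranked 6 of the 10 genes by this mean, well below its paralog.

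Further genes of the response were taken from 4 lists with 83 genes in all, of which 79 were tested. *Car9*, *Adm*, *Lox* and *Epo* were not, with at most 11 reads in any library. None of the 79 was called in any of the 3 comparisons by edgeR. At an unadjusted *P* under 0.05, 13 were higher and 10 lower in Zzz3 auxin (29.1% of the 79), and 8 were higher and 9 lower in Yeats2 auxin (21.5%), beside the shares of all genes given above. Their median log2 FC was 0.06 and 0.02. Over all genes DESeq2 called 1083 of 33007 in Zzz3 auxin and 418 of 33007 in Yeats2 auxin. Of the 79 it called 7 in Zzz3 auxin (*Tfrc*, *Pgk1*, *Epas1*, *Eloc* and *Hif1a* among them) and 2 in Yeats2 auxin (*Tfrc* and *P4ha1*). These names, other than those the naming rule gives, were chosen after their values were seen.

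Of the 15 genes for HIF subunits and oxygen sensing, 4 had an unadjusted *P* under 0.05 in Zzz3 auxin (2 higher, 2 lower), as did 3 in Yeats2 auxin (all lower). These shares were 26.7% and 20%, beside 21.7% and 14.6% of all genes. *Hif1a*, the most widely used alpha subunit, was at 332 and 299 CPM in control and between 239 and 258 CPM in all 6 auxin libraries, which therefore lay below both controls. Its log2 FC was -0.36 ± 0.10 in Zzz3 auxin (adjusted *P* = 0.0998) and -0.33 ± 0.10 in Yeats2 auxin (adjusted *P* = 0.189), and -0.15 and -0.17 with the GC and length trend removed. *Epas1* encodes the alpha subunit HIF-2alpha and was singled out after its values were seen. It was at 5.92 and 5.26 CPM in control, 14.8, 7.22 and 13.8 CPM in Zzz3 auxin and 5.22, 5.72 and 8.27 CPM in Yeats2 auxin, so that only the Zzz3 auxin libraries all exceeded control (log2 FC 1.09 ± 0.31, adjusted *P* = 0.0953). *Hif3a* overlapped with control in both groups (0.22 ± 0.33 and -0.48 ± 0.34).

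*Eloc* and *Cul2* encode parts of the VHL ubiquitin ligase. *Eloc* was at 166 and 171 CPM in control and between 111 and 137 CPM in the auxin libraries, all below control, with a log2 FC of -0.44 ± 0.12 in Zzz3 auxin (adjusted *P* = 0.0827) and -0.40 ± 0.12 in Yeats2 auxin (adjusted *P* = 0.161). These became -0.18 in both groups with the GC and length trend removed. *Cul2* was close to control in Yeats2 auxin (-0.08 ± 0.13) and at -0.24 ± 0.13 in Zzz3 auxin, where the GC and length correction brought it to -0.0049. *Cited2*, a HIF target whose product competes with HIF for the coactivators CBP and p300, was at 8.34 and 7.85 CPM in control, 8.52, 6.89 and 5.49 CPM in Zzz3 auxin and 4.53, 4.81 and 6.09 CPM in Yeats2 auxin. Its Yeats2 auxin libraries were below both controls (-0.65 ± 0.22, adjusted *P* = 0.216), and its Zzz3 auxin libraries overlapped with them (-0.21 ± 0.22, and -0.37 after the correction).

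Among 19 genes of glycolysis and lactate transport, 7 had an unadjusted *P* under 0.05 in Zzz3 auxin (4 higher, 3 lower), as did 6 in Yeats2 auxin (4 higher, 2 lower). These were 36.8% and 31.6% of the list, beside 21.7% and 14.6% of all genes. The list median was 0.12 and 0.14. *Pgk1*, which makes ATP in glycolysis, was at 33.0 and 29.6 CPM in control, 15.5, 23.5 and 17.0 CPM in Zzz3 auxin and 24.1, 23.3 and 20.9 CPM in Yeats2 auxin. It had the lowest log2 FC of this list in Zzz3 auxin (-0.74 ± 0.18, adjusted *P* = 0.0729) and -0.46 ± 0.18 in Yeats2 auxin, but processed copies of this gene exist and only uniquely aligned reads were counted, so its level is uncertain. *Slc16a3*, the lactate exporter MCT4, was at 10.4 and 9.12 CPM in control, 12.0, 5.02 and 6.49 CPM in Zzz3 auxin and 4.06, 6.30 and 3.40 CPM in Yeats2 auxin (-0.31 ± 0.35 and -1.09 ± 0.35, adjusted *P* = 0.192 for the latter), and the GC and length correction gave -0.62 and -1.32. *Slc2a3*, the transporter GLUT3 and with *Pkm* the most abundant gene of the list, was at -0.35 ± 0.16 and -0.32 ± 0.16. *Pkm* (0.37 ± 0.18 and 0.28 ± 0.18) and *Pfkfb4* (0.50 ± 0.21 and 0.50 ± 0.20), a regulator of glycolytic flux, had positive values, and both depended on control replicate 1, without which *Pkm* was at 0.11 and 0.03 and *Pfkfb4* at 0.32 and 0.33. The GC and length correction gave 0.04 and 0.06 for *Pkm* and 0.30 and 0.35 for *Pfkfb4*.

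The other HIF targets numbered 26 tested of 30 listed. Of these, 5 passed at that unadjusted level in Zzz3 auxin (2 higher, 3 lower) and 7 in Yeats2 auxin (3 higher, 4 lower). Their shares were 19.2% and 26.9%, beside 21.7% and 14.6% of all genes. *Tfrc*, the transferrin receptor for iron uptake, was at 2283 and 2066 CPM in control and between 1494 and 1586 CPM in the 6 auxin libraries. Its log2 FC of -0.51 ± 0.11 in both groups had adjusted *P* of 0.0545 and 0.0721, and DESeq2 called it in both, with 0.00132 and 0.00195. With the GC and length trend removed it was at -0.28 and -0.32, and edgeR did not call it. *Ak4*, a mitochondrial adenylate kinase, was at -0.23 ± 0.11 and -0.17 ± 0.11. *Ddit4*, which restrains mTORC1, went the other way, with 14.0 and 9.71 CPM in control, 13.3, 20.9 and 10.3 CPM in Zzz3 auxin and 19.5, 24.2 and 17.8 CPM in Yeats2 auxin (0.34 ± 0.28 and 0.79 ± 0.28, adjusted *P* = 0.230 for the latter). In Zzz3 auxin its value was 0.83 without control replicate 1 and Zzz3 auxin replicate 3 and 0.04 with the GC and length trend removed. *Pgf*, a relative of *Vegfa*, and *Car12*, a carbonic anhydrase, also had positive log2 FC in Yeats2 auxin (1.29 ± 0.55 and 0.99 ± 0.44), but on 3 to 30 and 9 to 30 reads per library. Without control replicate 1 *Pgf* was at 0.64.

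Of 20 genes of mitophagy and autophagy, 7 passed at the unadjusted level in Zzz3 auxin (5 higher, 2 lower) and 2 in Yeats2 auxin (1 in each direction), with list medians of 0.02 and 0.05. The counts are 35% and 10% of the list, beside 21.7% and 14.6% of all genes. *Foxo3*, a transcription factor of autophagy genes, was at 101 and 92.0 CPM in control and between 117 and 139 CPM in all auxin libraries, with a log2 FC of 0.38 ± 0.12 (adjusted *P* = 0.114) and 0.42 ± 0.12 (adjusted *P* = 0.159). The correction for GC and length gave 0.22 and 0.29. *Gabarap*, an autophagosome protein to which mitophagy receptors bind, was at 105 and 109 CPM in control and below both controls in all 6 auxin libraries (-0.19 ± 0.13 and -0.39 ± 0.13). *Calcoco1*, an autophagy receptor, was at 0.60 ± 0.20 and 0.42 ± 0.20, at 0.37 and 0.19 without control replicate 1, and at 0.26 and 0.20 after the correction. The prohibitin *Phb2* and the receptor *Tax1bp1* had log2 FC between -0.07 and 0.07. As reported, edgeR called 0 of these 20 genes, as did DESeq2. With no filter on low counts, edgeR called *Calcoco1*, *Fkbp8*, *Sqstm1* and *Ulk1* in Zzz3 auxin, all higher, beside 1542 of 33007 genes. *Calcoco1* was also called there without Zzz3 auxin replicate 2. The last 3 names were chosen after their values were seen.

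**Figure D3:**
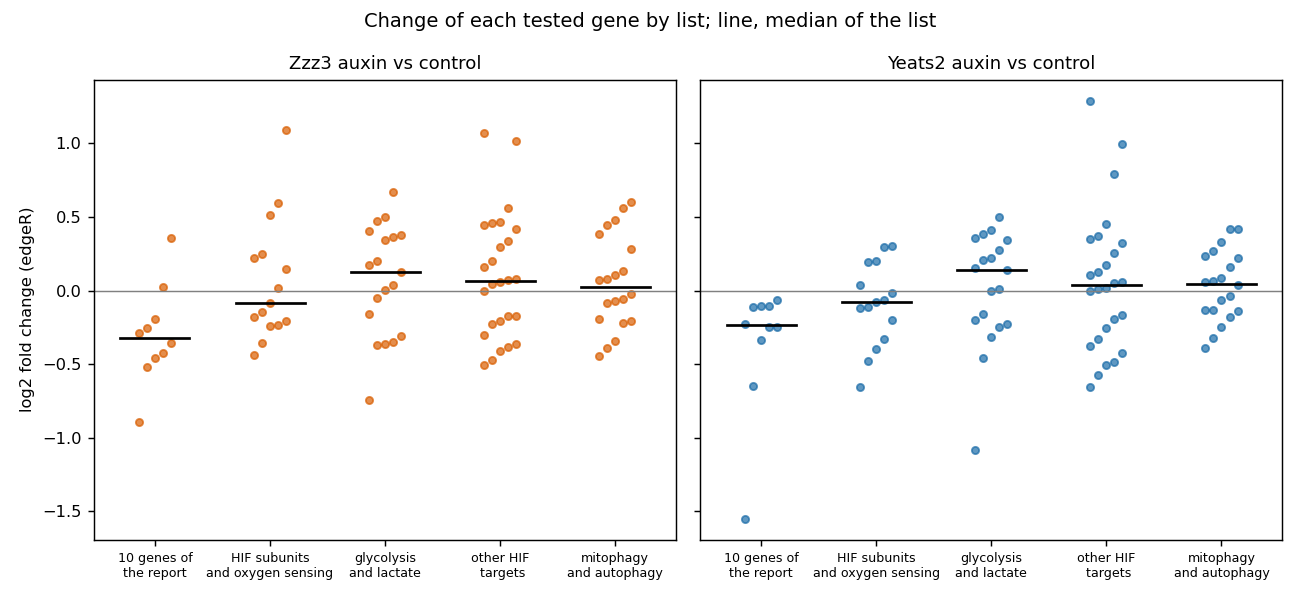
Log2 FC (vertical axis, edgeR) of every tested gene of the 5 lists in Zzz3 auxin and Yeats2 auxin against control, with 1 point per gene and a line at the list median. The 10 genes lie mostly below 0, while the other lists spread to both sides, with medians between -0.09 and 0.14.

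*Bnip3* was also set beside all protein-coding genes averaging 2 CPM or more by Pearson *r* of log2 CPM over the 8 libraries, a description in which the points share libraries and the group structure. Of 11104 genes compared, the closest were *C1galt1c1* (*r* = 0.987), *Slc36a4* (0.979), *Zfp974* (0.962), *Zfp62* (0.960) and *Zfp944* (0.955). Their mean levels descended from control over Zzz3 auxin to Yeats2 auxin as that of *Bnip3* did, with log2 FC of -0.52 to -0.25 and -0.79 to -0.38. None of these 5 is on the lists above. Among the 9 genes, *Pdk1* was nearest (*r* = 0.886, rank 80), followed by *Bnip3l* (*r* = 0.595, rank 1236), and the other 7 had *r* between 0.117 and 0.460.

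**Figure D4:**
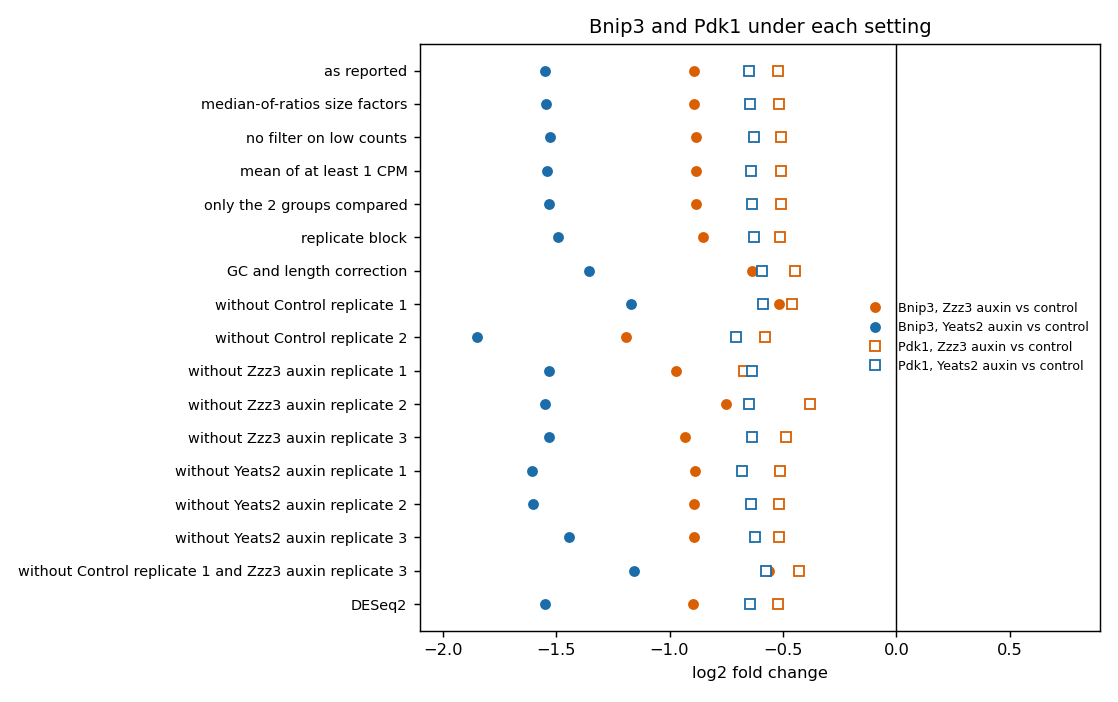
Log2 FC (horizontal axis) of *Bnip3* (filled circles) and *Pdk1* (open squares) in Zzz3 auxin (orange) and Yeats2 auxin (blue) against control, as reported and under 16 other settings (vertical axis). All values are below 0; those of *Bnip3* move most with the control left out, from -1.85 to -1.17 in Yeats2 auxin, and those of *Pdk1* in Yeats2 auxin stay between -0.71 and -0.57.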

How the data were processed

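Total RNA libraries were prepared with a stranded kit after ribosomal RNA depletion (the labels name poly(A) RNA as the molecule). The deposited values are raw counts per gene: the authors aligned reads to mm10 with STAR 2.5.3a and counted unique reads with HTSeq 0.6.1p1 in union mode, without normalization, and did not state the strand option. Tallies of unassigned reads were left out. Reads in no annotated feature made up 29.6 to 37.1%, and ambiguous reads 0.952 to 1.78%, of assigned, unfeatured and ambiguous reads together. GENCODE M21 (GRCm38, the assembly of mm10) named 55141 of 55401 genes.

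All 8 libraries were fitted with a mean per group in R 4.3.3 with edgeR 4.0.16 (filterByExpr, TMM, robust quasi-likelihood test, two-sided, Benjamini-Hochberg over the 17532 genes tested in each comparison). SEs were obtained as the absolute log2 FC over the root of the F statistic. Alternatives were DESeq2 1.42.0, the tool of the study, other size factors, other filters, the compared groups alone, a replicate block, a lowess correction for GC content and length (span 0.3), leaving out each library in turn and, chosen after seeing the data, leaving out control replicate 1 and Zzz3 auxin replicate 3 together. Figures and tables were made with Python 3.11.15, pandas 2.3.3, numpy 2.4.6 and matplotlib 3.10.9. On simulated data with 200 changed genes, 97.0% were recovered for Zzz3 auxin (17211 genes) and 96.7% for Yeats2 auxin (17207 genes), with 5.98% and 4.45% of calls false. These shares were not split by size of change. Recovery at log2 FC as small as those of the 9 genes other than *Bnip3* was not tested.

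The 10 genes, the lists and the tests were chosen with earlier results of these data known. Named were the 10 genes, and from each further list the genes called by edgeR in a comparison with control, the 3 with the largest absolute log2 FC in Yeats2 auxin and the 2 with the highest mean CPM; also the 5 genes most like *Bnip3* over the libraries (log2 CPM with a prior count of 2), and genes that overlap one of the 10. Nascent RNA was not analysed here. One further gene of the lists is not reported here by name.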

Additional observations from a re-analysis of the deposited data

How the results depend on the processing

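With 2 controls, 16 other settings were tried. In Zzz3 auxin against control, 2 of the 10 genes were called with no filter on low counts and 2 with DESeq2 (*Bnip3* and *Pdk1* each time). The calls of *Bnip3* rest on the controls against which it was chosen. With any single auxin library left out 0 of the 10 were called, beside 3 to 841 of all genes. In Yeats2 auxin, *Pdk1* was the 1 gene called of the 9 other than *Bnip3*. It was called with no filter, with only the 2 groups compared, with DESeq2 and without Zzz3 auxin replicate 1. Over the auxin libraries left out, 0 to 1 of the 9 were called, beside 0 to 217 of all genes. The 79 further genes gave 11 calls in Zzz3 auxin with no filter, 7 with DESeq2 and 1 with the GC and length correction, and 0 to 7 over the libraries left out (7 without Zzz3 auxin replicate 2, 2 without replicate 3). In Yeats2 auxin they gave 3 with no filter, 3 with only the 2 groups, 2 with DESeq2 and 0 to 1 over the libraries left out (1 without Zzz3 auxin replicate 3), and in the direct comparison 1 with no filter (*Epas1*). Over all genes DESeq2 called 1083 and 418 of 33007, and no filter 1542 and 553 of 33007. With only the 2 groups, 0 of 16627 and 454 of 16861 were called. The cause was not tested. Leaving out 1 library moved the median of the 9 genes from -0.36 to -0.27 in Zzz3 auxin and from -0.24 to -0.16 in Yeats2 auxin, and leaving out control replicate 1 and Zzz3 auxin replicate 3 together gave -0.15 in the latter. *Bnip3* in Zzz3 auxin ranged from -1.19 to -0.52 over the libraries left out, with adjusted *P* from 0.0121 to 0.654 over all settings, and *Pdk1* in Yeats2 auxin from -0.71 to -0.59, with 0.00585 to 0.653.

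Several values changed sign, most of them near 0. Some were larger as reported: *Slc2a1* at 0.36 and *Pgf* at 0.45 in Zzz3 auxin, and *Egln3* at -0.34 in Yeats2 auxin. In Zzz3 auxin, the GC and length correction gave -0.026 for *Egln3*, -0.060 for *Phb2* and 0.13 for *Tax1bp1*, and leaving out control replicate 1 and Zzz3 auxin replicate 3 together gave -0.15 for *Slc2a1*, -0.18 for *Phb2* and 0.13 for *Tax1bp1*. In Yeats2 auxin the correction gave 0.10 for *Cul2* and -0.047 for *Phb2*, and leaving out both libraries gave 0.12 for *Egln3*, 0.013 for *Cul2* and -0.09 for *Phb2*. Over libraries left out, singly or as that pair, the range in Zzz3 auxin was -0.32 to 0.63 for *Egln3*, -0.15 to 0.56 for *Slc2a1*, -0.20 to 1.76 for *Pgf*, -0.18 to 0.27 for *Phb2* and -0.14 to 0.13 for *Tax1bp1*. In Yeats2 auxin it was -0.68 to 0.12 for *Egln3*, -0.17 to 0.0066 for *Ankrd37*, -0.28 to 0.092 for *Slc2a1*, -0.11 to 0.25 for *Phb2*, -0.021 to 0.11 for *Tax1bp1* and -0.031 to 0.33 for *Epas1*. In the direct comparison it was -0.27 to 0.037 for *Pdk1* and -0.17 to 0.22 for *Vegfa*.

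Deviations from the group means of same-numbered libraries correlated between -0.34 and 0.31. The deviations of both controls are mirror images of each other by construction. These values therefore cannot show whether the replicate numbers of the labels pair the libraries. With the replicate block, 42 genes were called in Zzz3 auxin and 32 in Yeats2 auxin, none of them among the 10 genes tested in Zzz3 auxin or the 9 tested in Yeats2 auxin, and *Bnip3* in Yeats2 auxin was at -1.49. Depth limits *Bnip3*, *Egln3* and *Ankrd37* most, with 36 to 233 reads per library.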
